A study of Mus musculus with 20 samples.

Results

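Expressed pseudogenes were examined in the striatum of 20 male mice from the High-Active and Control lines. They were taken as the rows of the count tables whose Ensembl gene has a symbol ending in -ps, with or without a number, and which exceeded 1 CPM (counts scaled to the library's total on genes) in 3 or more of the 20 mice. Of the 1043 genes with such a symbol, 444 had at least 1 count in any mouse and 82 passed this level rule. They are 82 of the 14792 genes that passed it in all. The study asked how the striatum differs between a line bred for home cage activity and its control, and how each line responds to a low dose of amphetamine. Both lines were founded by intercrossing 8 inbred strains. The High-Active line was bred for distance traveled in the home cage and the Control line was bred at random. Mice of generation 17, about 6.5 months old, received 0.25 mg/kg d-amphetamine sulfate or saline by intraperitoneal injection and were killed 2 hours later, which made 4 groups of 5 mice (saline or amphetamine within each line). There is 1 High-Active and 1 Control line, so a difference between the lines cannot be told apart from a difference that arose by drift in either. The sire and dam labels give 8 pairs of parents for the Control mice and 5 for the High-Active mice. The methods of the study instead state that no mice shared a family, and what is said below of littermates and parents follows the labels. The tissue was the whole striatum of both sides, so for any transcript fewer cells of a type and less RNA per cell cannot be told apart.

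A pseudogene is a copy of a gene that has lost, or is presumed to have lost, the ability to make the parent's protein. Most pseudogenes of mammals are processed: a spliced messenger RNA was copied back into DNA and inserted elsewhere in the genome, without introns and without the parent's promoter. Genes with abundant messenger RNA in the germ line, such as those of ribosomal proteins, have left many such copies. Some are transcribed from promoters near the insertion, and because they resemble the parent, reads from one can be placed on the other. The copies present at a site can differ between inbred strains.

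By the annotation, 62 of the 82 were processed pseudogenes and 1 more was a transcribed processed pseudogene. Another 10 were unprocessed (7 of them transcribed), which are gene duplicates that kept their introns. Of the others, 2 were unitary (an inactivated gene with no working copy) and 1 was polymorphic. The symbol and the annotation did not match for 6 genes, of which 5 (Ftl1-ps1, Rpl9-ps6, Rpl10-ps3, Nutf2-ps1 and Atg4a-ps) are annotated as protein-coding and 1 (Tmem250-ps) as a lincRNA. A parent gene was assigned to 74 of the 82, to 69 by the symbol and to 5 by the closest coding sequence. These 74 have 69 different parents, 5 of which have a pair of expressed pseudogenes each. The median identity of pseudogene and parent over the aligned part was 99.4%, and 50 pairs were at least 99% identical. Of all stretches of 100 bases in a pseudogene, the length of 1 read, a median of 59.2% occurred without a difference in the parent's transcripts. In 12 pseudogenes every stretch did so. Counts of these pairs are therefore uncertain. A read without a difference to tell them apart can be placed on either or left uncounted as not unique. The other read of its pair can still hold a difference, which these shares leave out.

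The following stretches show how close the copies are. Each is 100 bases of the pseudogene's transcript and of the parent's coding sequence, 5′ to 3′, from the GENCODE transcripts of GRCm38, taken where the pair has its median number of differences over the coding sequence. The first 3 pairs have none in the stretch and are printed once. Over its whole transcript Rps26-ps1 is less close, with a median of 1 difference per 100 bases and 40.0% of stretches identical to Rps26. They are Rps13-ps1, Rps26-ps1 and Ftl1-ps1, in each of which the pseudogene and the parent moved in opposite directions between the lines.

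Rps13-ps1 and Rps13: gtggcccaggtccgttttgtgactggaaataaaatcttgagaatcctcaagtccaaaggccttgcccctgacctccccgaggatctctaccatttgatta
Rps26-ps1 and Rps26: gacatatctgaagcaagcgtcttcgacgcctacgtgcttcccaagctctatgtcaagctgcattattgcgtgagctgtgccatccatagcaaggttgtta
Ftl1-ps1 and Ftl1: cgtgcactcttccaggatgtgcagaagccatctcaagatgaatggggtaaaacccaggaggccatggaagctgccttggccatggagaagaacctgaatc

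The other pairs carry 1 difference, shown in capitals. Rps15a-ps7 was the copy with the smallest p value among those higher in the High-Active line, and Tdg-ps was nearly absent from it.

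Rps15a-ps7: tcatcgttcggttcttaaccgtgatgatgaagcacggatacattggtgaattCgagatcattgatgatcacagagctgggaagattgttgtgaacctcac
Rps15a: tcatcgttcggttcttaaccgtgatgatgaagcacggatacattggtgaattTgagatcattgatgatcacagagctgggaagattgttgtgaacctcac
Tdg-ps: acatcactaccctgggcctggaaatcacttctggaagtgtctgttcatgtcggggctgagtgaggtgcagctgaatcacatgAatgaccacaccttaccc
Tdg: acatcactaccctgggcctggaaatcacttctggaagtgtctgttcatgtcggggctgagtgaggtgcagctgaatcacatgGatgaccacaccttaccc

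The total of counts on genes ranged from 32388971 to 53710713 over the mice. A count of 3 in the shallowest library is a share of 9.26e-06%. Counts on the 82 pseudogenes made up 0.0574 to 0.0817% of all counts in Control mice and 0.0676 to 0.0821% in High-Active mice. Reads aligned to several places, which were not counted on any gene, were 5.70 to 6.56% of the reads in Control mice and 6.21 to 7.01% in High-Active mice, and their part in the differences was not tested. Of 10 marker genes of medium spiny neurons, the main neurons of the striatum, all 10 were expressed, with a summed level of 5418 to 6801 CPM in Control and 4532 to 7091 CPM in High-Active mice. Markers of cortical excitatory neurons (10 of 10 expressed) were lower in High-Active mice by -0.59 on the mean log2 CPM scale (permutation test, two-sided, p = 0.0462, n = 10 per line), with summed levels of 250 to 1128 CPM against 432 to 1004 CPM. Of these 10 markers, 4 were lower and none was higher at the threshold below. Markers of oligodendrocytes (8 of 8 expressed) were higher by 0.19 (permutation test, two-sided, p = 0.0356, n = 10 per line), with summed levels of 5587 to 7419 against 4058 to 6906 CPM, and 2 of the 8 passed. Microglial markers (5 of 5 expressed) were lower by -0.13 (permutation test, two-sided, p = 0.0165, n = 10 per line), at 195 to 242 against 201 to 249 CPM, and 2 of the 5 passed. Markers of medium spiny neurons differed by -0.14 (permutation test, two-sided, p = 0.124, n = 10 per line). Those of astrocytes, choroid plexus and endothelial cells differed by 0.06, 0.50 and 0.05 (permutation test, two-sided, p ≥ 0.418, n = 10 per line). Of the astrocyte markers, 2 were higher at the threshold and none was lower. None of these p values was adjusted for the number of marker lists. The part of these markers in the differences of the pseudogenes was not tested beyond the covariate fit given below.

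A gene was taken as differentially expressed at a false discovery rate (FDR, the adjusted p of edgeR's quasi-likelihood test) under 0.1. The line difference is High-Active minus Control, averaged over both treatments and given as a log2 fold change with its standard error (SE). Of the 82 pseudogenes, 18 were differentially expressed between the lines, 8 upregulated and 10 downregulated in High-Active mice. This is 22.0% of them, beside 14.5% of all genes tested (7.63% upregulated and 6.9% downregulated). The median log2 fold change of the 82 was 0.08 and that of all genes was -0.00093. Large differences were more frequent: 14 of the 82 (17.1%) were differentially expressed with at least a 2-fold difference, beside 1.1% of all genes tested. Among genes with a mean under 10 CPM these were 11 of the 62 pseudogenes (17.7%), beside 3.04% of all 4895 such genes. The median size of the log2 fold change, without its sign, was 0.27 for the pseudogenes, 0.08 for all genes and 0.07 for the 69 parents, and the median spread between mice of a line (SD of log2 CPM) was 0.53, 0.16 and 0.13. Of the 82, 17 had passed the level rule through 1 line alone, 7 through Control and 10 through High-Active mice, and 9 of the 18 calls were among these 17. Among the 65 that passed it in each line, 9 were differentially expressed (13.8%), beside 13.8% of all genes of that kind, and 5 of them by at least 2-fold (7.69%, beside 0.493%). No pseudogene separated the lines completely: in none of the 82 did the CPM of the 10 Control and 10 High-Active mice fail to overlap, beside 0.25% of all genes tested. Of the 18 calls, 8 remained with marker scores of cortex and oligodendrocytes as covariates, 6 in saline-treated mice alone and 1 (Tdg-ps) in amphetamine-treated mice alone. The share of all genes called fell as well, from 14.5% to 2.49%, 3.38% and 0.804%. By limma-voom, another test, with the pair of parents as a block, 13 remained (12.7% of all genes were called). The calls of Rps19-ps6, Rpl36-ps12, Itpa-ps1, M6pr-ps and Tcea1-ps1 were lost. Test and block changed together in this fit, and the part of each in these losses was not tested. With littermates of a line merged into 1 sample, 9 of the 18 calls remained, and 4.12% of all genes were called. Those of Rps13-ps2, Ftl1-ps1, Rps19-ps6, Itpa-ps1, M6pr-ps, Tcea1-ps1, Rps2-ps6, Gpr137b-ps and Tmem181b-ps were lost. The merged groups hold fewer samples, and the cause of these losses was not tested.

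**Figure D1:**
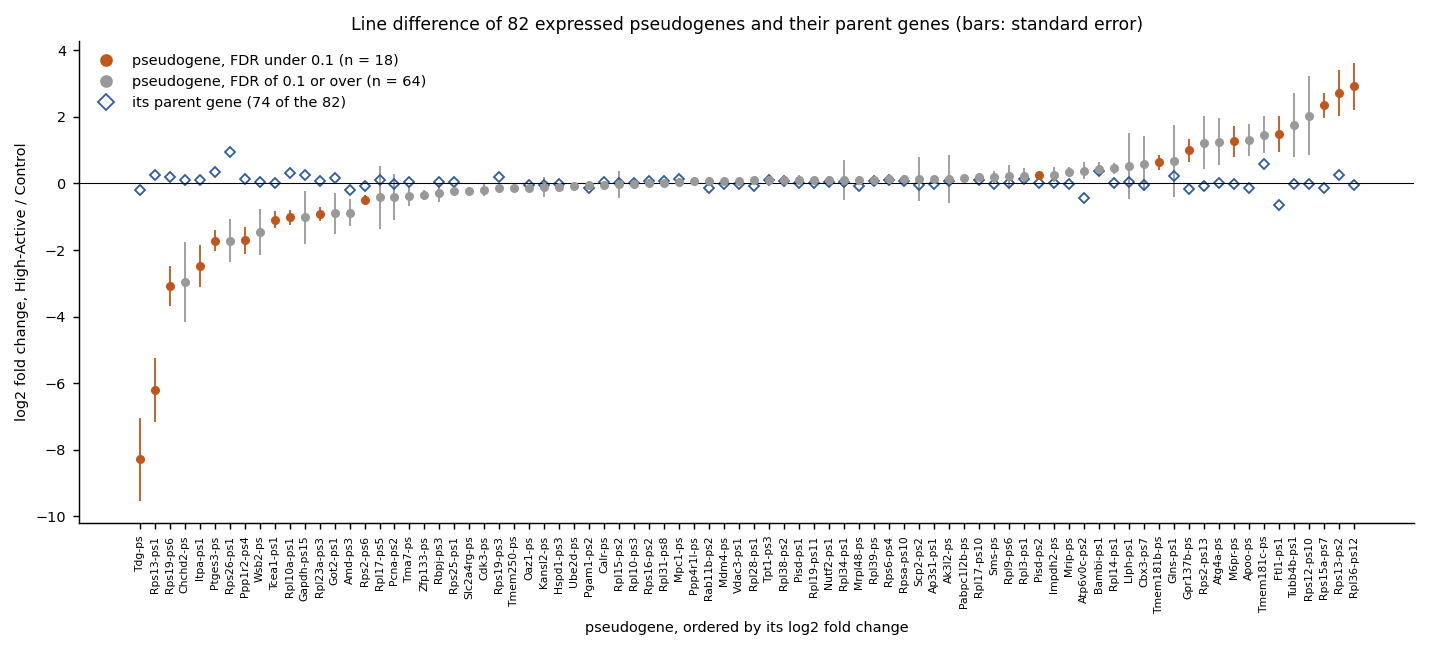
Line difference (log2 fold change, High-Active over Control, y axis) of each of the 82 pseudogenes, ordered along the x axis, with bars of 1 standard error; filled orange points are the 18 at an FDR under 0.1 and grey points the other 64, and open diamonds are the parent genes. The pseudogenes at both ends lie between -8.29 and 2.92, while the diamonds stay between -0.64 and 0.93.

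Copies of genes of the cytosolic ribosome made up 29 of the 82, and 8 of them were differentially expressed (27.6%, beside 14.5% of all genes), 5 lower and 3 higher in High-Active mice. Of these 8, only Rpl10a-ps1, Rpl23a-ps3 and Rps2-ps6 passed the level rule in each line. The others passed it through the line in which they were higher, so the 27.6% is not independent of that rule. The median log2 fold change of the 29 was 0.10, beside -0.00093 for all genes tested. Rps13-ps1 (ENSMUSG00000066362, chromosome 8, 87047689 to 87048226, plus strand, GRCm38), a copy of the gene of a small subunit protein, was at 9.98, 10.3, 11.3, 9.75 and 5.28 CPM in the Control saline mice and at 4.07, 9.25, 5.38, 8.98 and 10.8 CPM in the Control amphetamine mice. In High-Active saline mice it was at 0, 0.0243, 0, 0 and 0.0225 CPM. In High-Active amphetamine mice it was at 0, 0.0309, 5.05, 0 and 0 CPM. All Control mice expressed it, and of the High-Active mice mouse 487 did, within the Control range, while the other 9 held 3 reads together. The log2 fold change was -6.21 (SE 0.96, FDR 0.000993), and without mouse 487 it was -9.65, a fitted value that depends on the prior count since nearly all High-Active mice were then at 0.

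A second copy of the same gene, Rps13-ps2 (ENSMUSG00000069972, chromosome 7, 88530446 to 88530898, minus strand), was identical to Rps13 in every stretch of 100 bases and had the opposite line difference. In Control saline mice it was at 0, 0, 0, 0 and 0.654 CPM and in Control amphetamine mice at 0.323, 0, 0.462, 0 and 0 CPM. In High-Active saline mice it was at 0.918, 1.1, 1.19, 1.28 and 1.04 CPM and in High-Active amphetamine mice at 0.916, 0.895, 0.465, 1.20 and 0.816 CPM. The lines overlapped through mouse 883 of the Control saline group and mouse 487 alone. The log2 fold change of Rps13-ps2 was 2.73 (SE 0.69, FDR 0.0225), and it was 5.49 without mouse 883. The 3 Control mice with any Rps13-ps2 reads (369, 409 and 883) were also the 3 Control mice lowest in Rps13-ps1, and mouse 487 was the High-Active mouse lowest in Rps13-ps2 and highest in Rps13-ps1. Both copies passed the level rule with the help of 1 line only.

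Rps15a-ps7 (ENSMUSG00000081087, chromosome 2, 152185291 to 152185682, minus strand), a copy of another small subunit gene, was at 0.842, 0.497, 0.646, 0.406 and 0.496 CPM in Control saline mice and at 5.07, 0.401, 4.28, 0.467 and 0.898 CPM in Control amphetamine mice. In High-Active saline mice it was at 4.54, 7.96, 8.20, 8.29 and 4.44 CPM and in High-Active amphetamine mice at 4.02, 4.20, 4.75, 4.43 and 7.24 CPM. All 10 High-Active mice were above 4 CPM, as were Control mice 369 and 409, and the other 8 Control mice were below 0.9 CPM. The log2 fold change of Rps15a-ps7 was 2.34 (SE 0.38, FDR 0.00149).

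Rps19-ps6 (ENSMUSG00000096942, chromosome 12, 110898114 to 110898551, plus strand) was at 15.9, 5.49, 11.6, 0.587 and 0.609 CPM in Control saline mice and at 0.621, 4.47, 6.16, 5.24 and 0.283 CPM in Control amphetamine mice. In the 10 High-Active mice it lay between 0.365 and 0.923 CPM with a median of 0.545 CPM. The 4 low Control mice were inside the High-Active range or below it. The log2 fold change of Rps19-ps6 was -3.09 (SE 0.60, FDR 0.0053). Rpl36-ps12 (ENSMUSG00000091845, chromosome 6, 108140120 to 108140509, minus strand), a copy of a large subunit gene, had the opposite pattern. It was at most 0.543 CPM in the 10 Control mice and at 6.09, 0.195, 0.206, 0.349 and 3.76 CPM in High-Active saline mice. In High-Active amphetamine mice it was at 0.438, 3.46, 0.223, 0.388 and 6.11 CPM. Its line difference (log2 fold change 2.92, SE 0.71, FDR 0.0181) thus rested on 4 of the 10 High-Active mice, which were 2 pairs of littermates (197 and 905, 415 and 886) with 1 mouse of each pair under each treatment.

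Rpl10a-ps1, a copy identical to Rpl10a in every stretch of 100 bases, ranged from 4.41 to 21.5 CPM in Control mice (median 13.4) and from 4.72 to 12.9 CPM in High-Active mice (median 5.80). The ranges overlapped through Control mouse 407 and High-Active mice 487 and 905, and the log2 fold change was -1.02 (SE 0.22, FDR 0.011). Rpl23a-ps3 ranged from 1.01 to 3.47 CPM (median 2.31) in Control and from 0.895 to 2.12 CPM (median 1.12) in High-Active mice, with a log2 fold change of -0.91 (SE 0.21, FDR 0.0157). The third lower copy of a small subunit gene, Rps2-ps6, changed less (log2 fold change -0.50, SE 0.15, FDR 0.0482). The other 21 copies of ribosomal protein genes had log2 fold changes between -1.71 and 2.04 and an FDR of 0.107 or more. Among the 82 coding genes of the cytosolic ribosome, 10 were higher in High-Active mice (12.2%, beside 7.63% of all genes), none was lower (6.9% of all genes were) and none differed by 2-fold, with a median log2 fold change of 0.05.

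**Figure D2:**
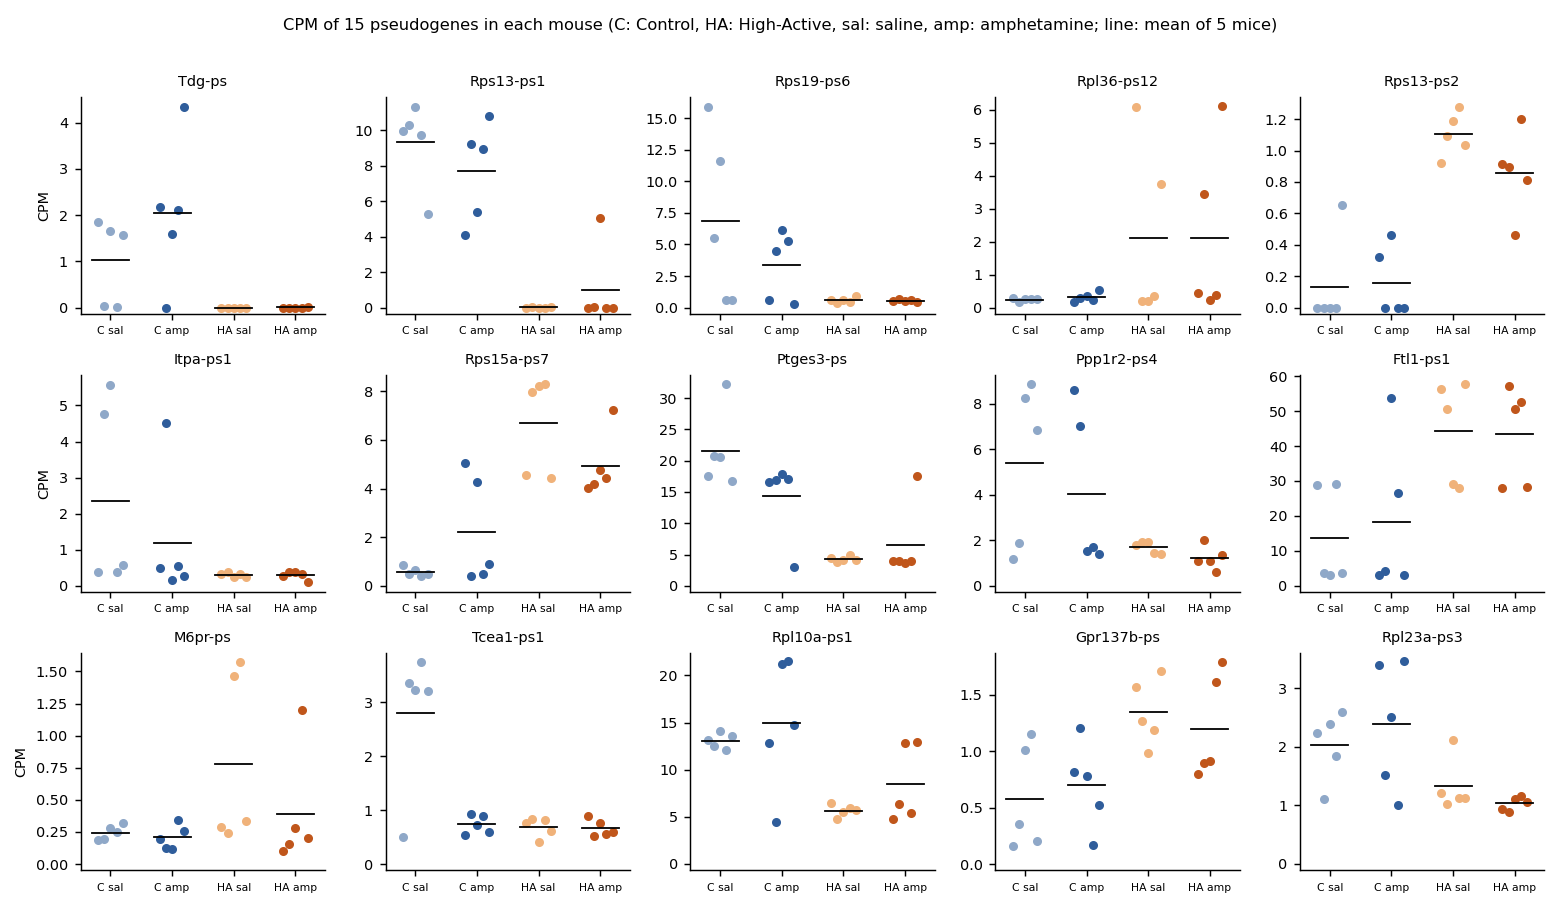
CPM (y axis, a scale of its own in each panel) of the 15 differentially expressed pseudogenes with the largest log2 fold changes, in each mouse of the 4 groups (x axis; C, Control; HA, High-Active; sal, saline; amp, amphetamine). Points are mice and lines are means of 5 mice; in most panels mice of 1 group sit at separate low and high levels, as for Rps19-ps6 in Control mice (0.283 to 15.9 CPM).

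The other 10 differentially expressed pseudogenes were among the 46 whose symbols matched no fixed list for the ribosome, metabolism, protein folding, the cytoskeleton or mitochondria. The lists go by the start of the symbol, so parents with such a role under another name are among the 46. Of the 10, 5 were higher and 5 lower in High-Active mice (21.7% of the 46, beside 14.5% of all genes). Tdg-ps, Itpa-ps1, Tcea1-ps1 and M6pr-ps had passed the level rule through 1 line alone. Tdg-ps (ENSMUSG00000047347, chromosome 15, 82516311 to 82519278, plus strand) is a copy of the gene of thymine DNA glycosylase, which removes mismatched and modified bases from DNA. It was at 1.84, 0.0276, 1.66, 0.0226 and 1.58 CPM in Control saline mice and at 2.19, 0, 1.59, 2.12 and 4.35 CPM in Control amphetamine mice. The 10 High-Active mice together held 1 read, in mouse 905, and 9 were at 0. Control mice 448, 477 and 407 were also at or near 0. With 632 reads in Control mice, the ratio of the lines was 692 (exact 95% interval 124 to 27361, which covers counting error only). The FDR was 0.0017, and the fitted log2 fold change of -8.29 (SE 1.25) depends on the prior count.

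Ptges3-ps (ENSMUSG00000040078, chromosome 6, 85843980 to 85844459, plus strand) is a copy of the gene of p23, a co-chaperone of Hsp90, and was identical to it in every stretch of 100 bases. It was at 17.6, 20.7, 20.6, 32.2 and 16.8 CPM in Control saline mice and at 16.7, 16.9, 17.9, 17.1 and 3.02 CPM in Control amphetamine mice. In High-Active saline mice it was at 4.41, 3.85, 4.11, 5.00 and 4.17 CPM and in High-Active amphetamine mice at 3.92, 3.95, 3.57, 4.00 and 17.5 CPM. Control mouse 457 lay below all High-Active mice and High-Active mouse 905 lay in the Control range. The other 9 mice of each line did not overlap. The log2 fold change of Ptges3-ps was -1.72 (SE 0.32, FDR 0.00375).

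Ftl1-ps1 (ENSMUSG00000062382, chromosome 13, 74399694 to 74407346, plus strand), a copy of the gene of ferritin light chain, a subunit of the iron store of cells, was at 28.8, 3.53, 3.16, 29.1 and 3.79 CPM in Control saline mice and at 2.95, 4.23, 53.7, 26.5 and 3.24 CPM in Control amphetamine mice. In High-Active saline mice it was at 56.3, 50.6, 29.3, 27.9 and 57.6 CPM and in High-Active amphetamine mice at 28.0, 57.2, 50.5, 52.7 and 28.2 CPM. The 20 mice fell at 3 levels: 6 Control mice between 2.95 and 4.23 CPM, 3 Control and 4 High-Active mice between 26.5 and 29.3 CPM, and 1 Control and 6 High-Active mice between 50.5 and 57.6 CPM. The log2 fold change of Ftl1-ps1 was 1.48 (SE 0.53, FDR 0.0889). This call was near the threshold and held in 5 of the 20 fits that each left out 1 mouse, with an FDR of up to 0.144 (without Control mouse 883).

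Ppp1r2-ps4, a copy of the gene of an inhibitor of protein phosphatase 1, was at 8.27, 8.87 and 6.86 CPM in Control saline mice 469, 477 and 883 and at 8.62 and 7.03 CPM in Control amphetamine mice 369 and 407. The other 5 Control mice were between 1.16 and 1.88 CPM, in the range of the High-Active mice (0.592 to 2.04 CPM), and the log2 fold change of Ppp1r2-ps4 was -1.70 (SE 0.40, FDR 0.0165). Itpa-ps1, a copy of the gene of inosine triphosphatase, which clears noncanonical nucleotides, was at 4.77, 5.58 and 4.50 CPM in Control mice 448, 469 and 407 and under 0.6 CPM in the other 17 mice. Its log2 fold change of -2.48 (SE 0.63, FDR 0.023) therefore rested on 3 mice, 2 of them littermates, and was -1.65 without mouse 407 (FDR 0.0616). M6pr-ps, a copy of the gene of the cation-dependent mannose 6-phosphate receptor, which sorts lysosomal enzymes, was at 1.46, 1.57 and 1.20 CPM in High-Active mice 499, 871 and 872, which are littermates, and at most 0.344 CPM in the other 17. Its log2 fold change was 1.26 (SE 0.46, FDR 0.0966), and 0.72 without mouse 872 (FDR 0.251).

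Tcea1-ps1, a copy of the gene of the elongation factor TFIIS, was at 0.5, 3.37, 3.23, 3.75 and 3.20 CPM in Control saline mice and between 0.411 and 0.925 CPM in the other 15 mice. Its line difference (log2 fold change -1.09, SE 0.26, FDR 0.0175) was thus that of 4 Control saline mice. Gpr137b-ps, an unprocessed copy of a lysosomal membrane protein gene, ranged from 0.158 to 1.20 CPM in Control and from 0.797 to 1.79 CPM in High-Active mice, with a log2 fold change of 1.00 (SE 0.34, FDR 0.0772), and it kept an FDR under 0.1 in 10 of the 20 fits without 1 mouse (up to 0.128, without Control mouse 883). The remaining 2 higher copies, Tmem181b-ps (log2 fold change 0.63) and Pisd-ps2 (0.26), are unprocessed pseudogenes. Tmem181b-ps likewise kept its call in 10 of the 20 fits (FDR up to 0.137, without Control mouse 883).

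The differences of the pseudogenes were then set beside those of their parents. Of the 69 parents, 11 were differentially expressed between the lines (15.9%, beside 14.5% of all genes), 8 higher and 3 lower, and none by 2-fold. Of the 74 pseudogenes with a parent, 64 had a larger difference than the parent, 41 had the opposite sign, and in 5 both were differentially expressed. Of the 17 differentially expressed pseudogenes with a parent, 13 had the opposite sign. The correlation over these 74 pairs, which share libraries and, for near-identical pairs, reads, was -0.17 (Pearson's r) and -0.31 (Spearman's rho). It is across genes, which are not independent replicates.

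Rps26 and Rps26-ps1 changed by similar amounts of CPM in opposite directions. Rps26-ps1 (ENSMUSG00000059775, chromosome 8, 107439131 to 107439579, minus strand) just missed the threshold (log2 fold change -1.71, SE 0.65, FDR 0.107) and was chosen for this description after its values were seen. It was at 39.6, 61.1, 46.5, 86.0 and 57.0 CPM in Control saline mice and at 53.8, 46.4, 41.8, 39.1 and 0.590 CPM in Control amphetamine mice. In High-Active saline mice it was at 19.3, 16.9, 15.4, 16.7 and 0.450 CPM and in High-Active amphetamine mice at 0.438, 0.463, 17.6, 16.0 and 36.8 CPM. The parent Rps26 was at 46.3, 24.3, 50.8, 8.58 and 27.2 CPM in Control saline mice and at 24.8, 24.8, 43.9, 41.1 and 86.1 CPM in Control amphetamine mice. In High-Active mice Rps26 was between 40.1 and 96.9 CPM. Mouse 477, highest in Rps26-ps1, was the lowest in Rps26, and the 4 mice with under 1 CPM of Rps26-ps1 were the 4 highest in Rps26. Rps26 was higher in High-Active mice by 0.93 (SE 0.27, FDR 0.0413). The sum of both was 84.97 CPM ± 7.48 (SD, n = 10) in Control and 85.28 CPM ± 7.03 (SD, n = 10) in High-Active mice (log2 difference 0.006, permutation test, two-sided, p = 0.912). In mean CPM, Rps26-ps1 fell by 33.2 and Rps26 rose by 33.5. Without Control mouse 457, Rps26-ps1 passed the threshold (FDR 0.0593).

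Ftl1 and Ftl1-ps1 also moved in opposite directions. Ftl1 was lower in High-Active mice by -0.64 (SE 0.16, FDR 0.0244), with a mean of 116 CPM ± 30.1 (SD, n = 10) in Control and 74.1 CPM ± 18.0 (SD, n = 10) in High-Active mice. The sum of the pair was 132 CPM ± 14.3 in Control and 118 CPM ± 7.27 in High-Active mice (log2 difference -0.15, permutation test, two-sided, p = 0.0153), a smaller difference than that of either gene. For Ptges3-ps, the parent Ptges3 was higher by 0.36 (SE 0.07, FDR 0.00647) and the sum by 0.14 (97.8 CPM ± 7.01 against 108 CPM ± 9.26, permutation test, two-sided, p = 0.0113). For Rpl10a-ps1, the parent Rpl10a was higher by 0.30 (SE 0.08, FDR 0.0318) and the sum by 0.14 (78.2 CPM ± 6.16 against 86.3 CPM ± 7.49, permutation test, two-sided, p = 0.0184). How far reads were exchanged within these pairs by the alignment was not tested.

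**Figure D3:**
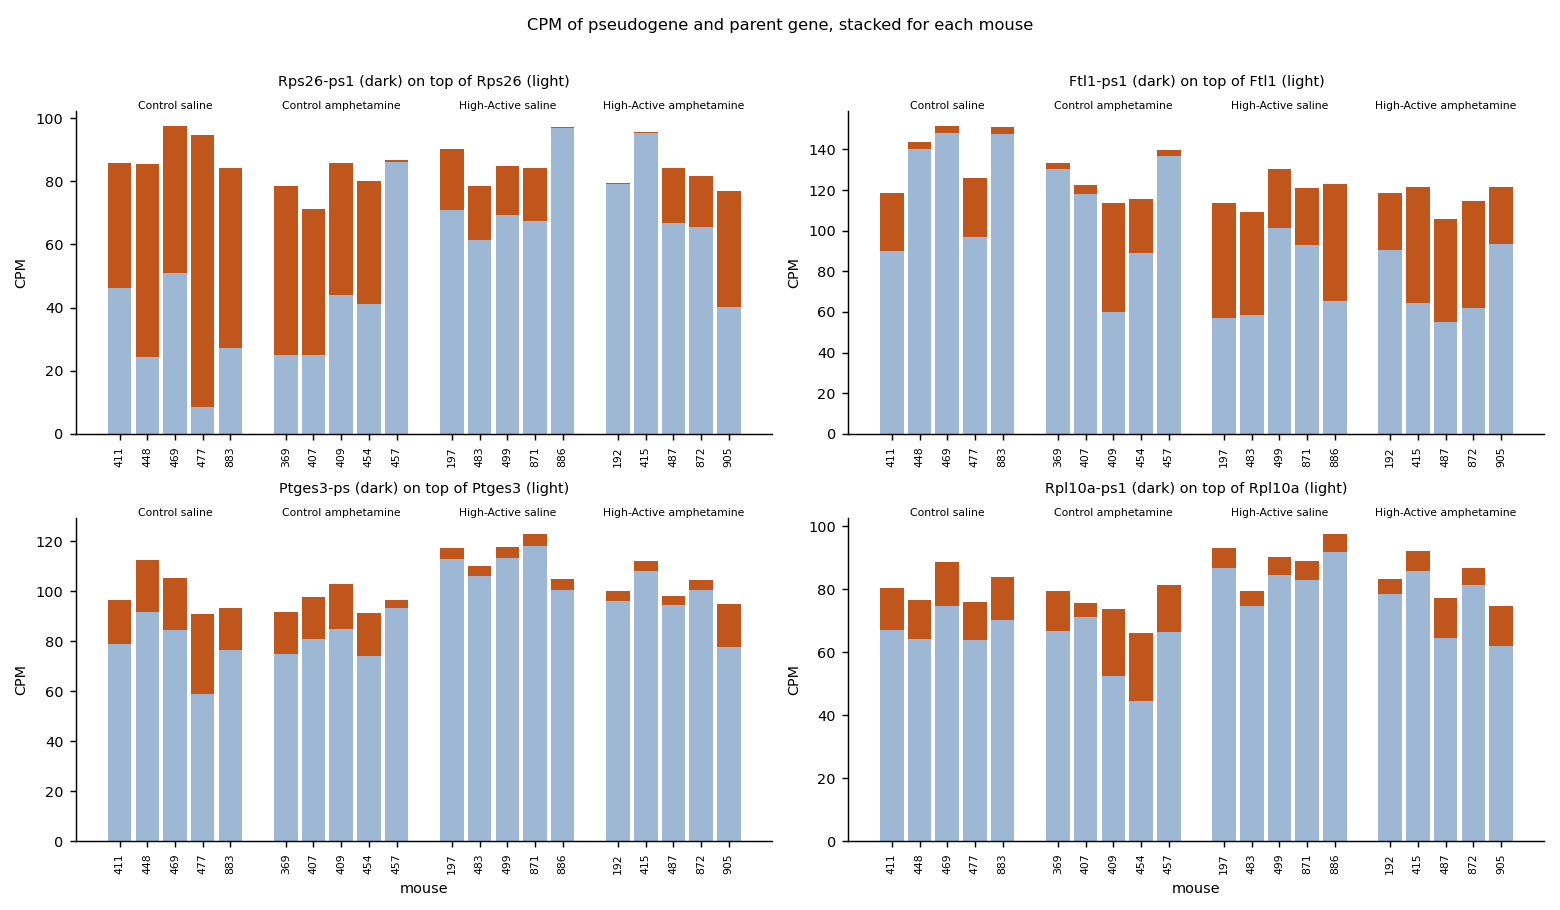
CPM of 4 pseudogenes (dark, on top) and their parents (light, below) stacked for each mouse (x axis, mouse numbers within the 4 groups; y axis, CPM from 0). For Rps26 the dark and light parts trade places between mice while the line means of the total stay at 84.97 and 85.28 CPM.

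The gene Rps13 was higher in High-Active mice by 0.27 (SE 0.05, FDR 0.00725), at 64.7 CPM ± 5.06 (SD, n = 10) in Control and 77.9 CPM ± 8.09 (SD, n = 10) in High-Active mice. Rps13-ps1 was lower and Rps13-ps2 higher beside it, and the sum of the 3 was 73.4 CPM ± 4.60 against 79.4 CPM ± 7.53 (log2 difference 0.11, permutation test, two-sided, p = 0.0482). Rps19 was higher by 0.21 without passing the threshold (SE 0.08, FDR 0.101). The parents of the other named differentially expressed copies (Tdg, Rpl36, Itpa, Rps15a, Ppp1r2, M6pr, Tcea1, Gpr137b, Rpl23a, Rps2 and Pisd) had log2 fold changes between -0.20 and 0.14 and an FDR of 0.174 or more. For Rpl36 and Rpl36-ps12 the sum was 66.0 CPM in each line, with an SD of 6.17 in Control and 6.12 in High-Active mice. The log2 ratio of pseudogene to parent was compared between the lines in 26 pairs. It differed at an unadjusted p under 0.05 in 18, with the largest differences in Rps13-ps1 (-6.82, permutation test, two-sided, p = 3e-05), Tdg-ps (-3.67, p = 0.00021, permutation test) and Rps26-ps1 (-3.47, p = 0.0158, permutation test), and in none of the 26 did the ratio separate the lines without overlap. These ratios reuse the values by which most of the pairs were chosen and are given as a description.

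In 6 further pairs the parent passed the threshold and the pseudogene did not. Mpc1, which makes a subunit of the mitochondrial pyruvate carrier, was higher by 0.14 (FDR 0.00253) beside 0.05 for Mpc1-ps. Glul, the gene of glutamine synthetase, was higher by 0.23 (FDR 0.0213) beside 0.69 for Glns-ps1, and Bambi by 0.38 (FDR 0.0677) beside 0.44 for Bambi-ps1. Rab11b (-0.12, FDR 0.0272) and Pgam1 (-0.12, FDR 0.0548) were lower beside 0.06 for Rab11b-ps2 and -0.05 for Pgam1-ps2. Tmem181a was higher by 0.59 (FDR 0.055) and its unprocessed copy Tmem181c-ps by 1.46 (FDR 0.105).

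The mice often sat at separate levels of a pseudogene. The gap was sought over all 20 mice, so a split between the lines counts as well. In 25 of the 82 (30.5%), beside 0.798% of all genes tested, the mice split into a low and a high set. Each set held at least 3 mice, with a gap of at least 4-fold in log2 CPM between neighbouring mice. Among genes with a mean under 10 CPM, 18 of the 62 pseudogenes had such a gap (29%), beside 1.9% of all such genes. Of the 25, 8 were differentially expressed between the lines (32%, beside 22% of the 82 and 14.5% of all genes). Of the 25, 14 had passed the level rule in each line, and of the 8 only Ftl1-ps1 had. The others of the 8 passed it through the line in which they were higher, so the 32% is not independent of that rule. Of 289 other expressed genes annotated as pseudogenes, 20.4% had such a gap, and of the 82 coding genes of the cytosolic ribosome none did. Within a line, log2 CPM ranged over at least 8-fold in 32 of the 82 pseudogenes (39.0%) and in 1 of the 69 parents (1.45%), beside 3.17% of all genes tested. Among genes with a mean under 10 CPM, 24 of the 62 pseudogenes ranged over at least 8-fold, beside 8.46% of all such genes.

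Where neighbouring mice more than 1.5-fold apart were taken as different levels, 9 of the 25 pseudogenes had 2 levels, 13 had 3 and 3 had more. Some of these levels are 1 mouse, as for Tdg-ps at 4.35 CPM. Others differ only near 0, where a few reads set the level, as for Tubb4b-ps1 at 0 and at 0.0276 to 0.189 CPM. The counts of levels are therefore upper limits. Got2-ps1, a copy of the gene of mitochondrial aspartate aminotransferase, was between 1.46 and 1.86 CPM in 6 mice, between 17.9 and 22.1 CPM in 11 and between 40.9 and 42.5 CPM in 3. The 6 low mice were 2 Control and 4 High-Active, and the 3 high mice were Control. Cbx3-ps7, a copy of the gene of the heterochromatin protein HP1 gamma, was between 0.0225 and 0.123 CPM in 5 mice, between 9.97 and 11.8 CPM in 10 and between 21.2 and 21.6 CPM in 3, with High-Active mice 871 and 872, which are littermates, at 36.2 and 33.1 CPM. Scp2-ps2, a copy of a sterol carrier protein gene, was between 4.43 and 5.62 CPM in 11 mice and between 9.61 and 10.5 CPM in 3, while the other 6 were under 0.7 CPM.

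Rps2-ps13, on the X chromosome, of which male mice carry a single copy, had 3 levels as well: 4 mice between 0.0487 and 0.0677 CPM, 6 between 16.4 and 18.5 CPM and 10 between 56.2 and 81.4 CPM. All 6 mice at its middle level were Control mice, and 8 of the 10 at its upper level were High-Active. Its log2 fold change of 1.23 had an SE of 0.80 (FDR 0.348). Gapdh-ps15, which the annotation places on the Y chromosome, was between 0.0597 and 0.135 CPM in 1 Control and 5 High-Active mice, between 5.32 and 8.02 CPM in 8 Control and 4 High-Active mice, and at 13.2 and 15.8 CPM in 1 mouse of each line. Rps12-ps10 was at most 0.0398 CPM in 8 Control and 3 High-Active mice and between 8.73 and 12.2 CPM in 2 Control and 7 High-Active mice, with a log2 fold change of 2.04 (SE 1.19, FDR 0.291). Of the 6 families with more than 1 mouse, all mice of a family lay on the same side of the gap in 6 for Tdg-ps, Rps19-ps6, Rpl36-ps12, Itpa-ps1, Ftl1-ps1, Tmem181c-ps, Rps26-ps1, Rpl17-ps5 and Ak3l2-ps, and in 3 for Rps2-ps13 and Scp2-ps2. For the other pseudogenes with such a gap it was 4 or 5. Where a whole line lay on 1 side, its families agree by line alone. High-Active mice did so for Tdg-ps, Rps19-ps6, Itpa-ps1, Ftl1-ps1, Tmem181c-ps, Rps15a-ps7 and Rps13-ps2, and Control mice for Rpl36-ps12, Rps13-ps1 and Apoo-ps. The number expected without a link to family was not computed. The genotype of the mice at these sites was not analysed here.

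**Figure D4:**
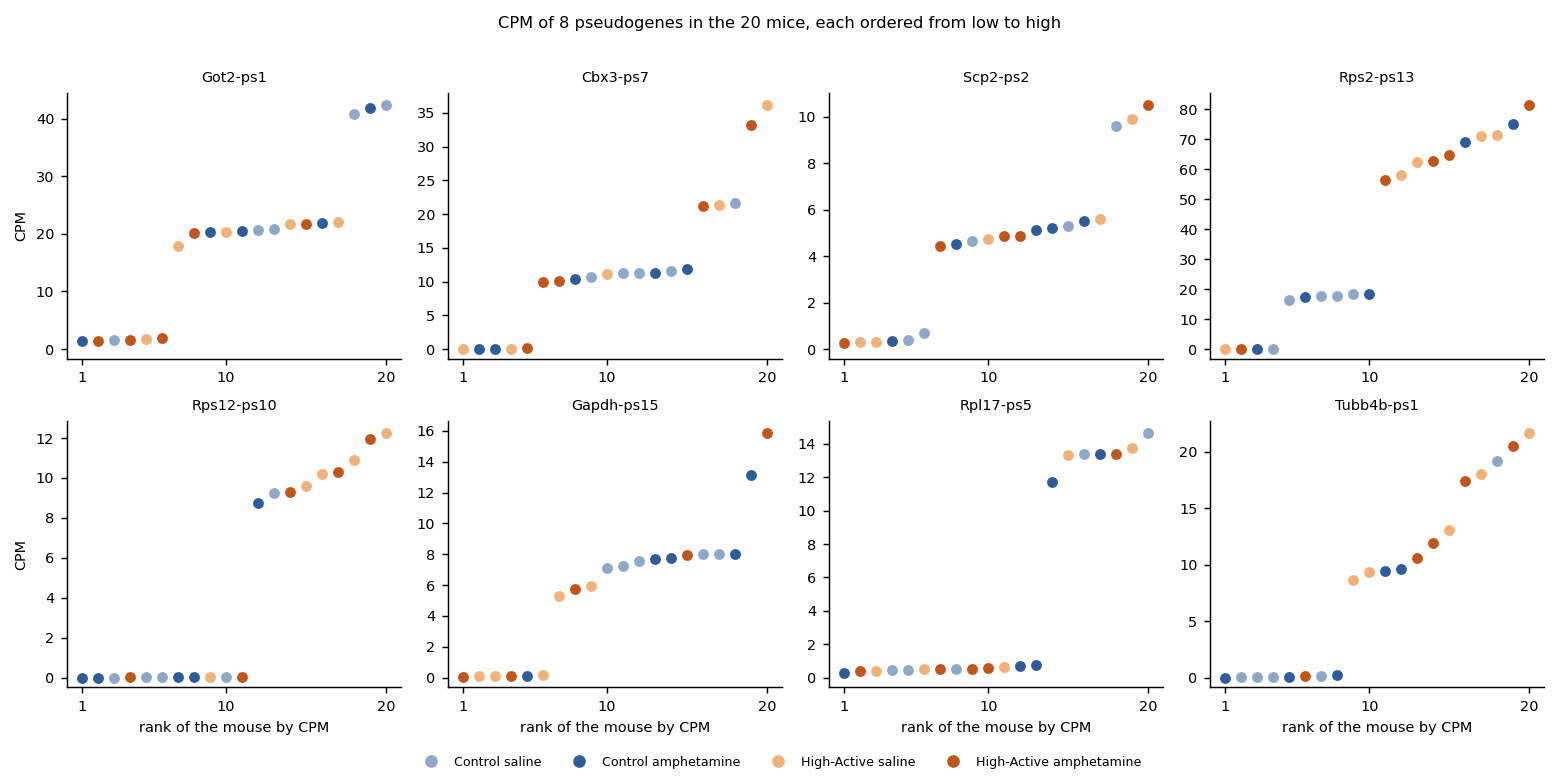
CPM (y axis) of 8 pseudogenes, chosen from the 25 with a gap, in the 20 mice. Mice are ordered from the lowest to the highest in each panel (x axis, rank), with colours for the 4 groups. The points form separate steps, for Got2-ps1 at 1.46 to 1.86, 17.9 to 22.1 and 40.9 to 42.5 CPM. Some steps slope, as the upper one of Tubb4b-ps1 (8.63 to 21.6 CPM). Each step holds mice of several groups in most panels.

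No pseudogene responded to amphetamine at an FDR under 0.1 in edgeR's quasi-likelihood test, nor did any of the 14792 genes tested (0% of all genes). At an unadjusted p under 0.05 there were 7 of the 82 (8.54%), beside 12.5% of all genes, and 4 of the 69 parents. DESeq2 called 1 of the 82 and a likelihood-ratio test with robust dispersions 4, beside 2.64% and 3.1% of all genes. The smallest p belonged to Tcea1-ps1, which averaged 1.75 CPM ± 1.42 (SD, n = 10) after saline and 0.70 CPM ± 0.159 (SD, n = 10) after amphetamine (log2 fold change -0.97, SE 0.26, edgeR FDR 0.198). The drop was within Control mice, where the saline mice other than 411 were at 3.20 to 3.75 CPM and the amphetamine mice at 0.546 to 0.925 CPM. In High-Active mice it was between 0.411 and 0.828 CPM after saline and between 0.525 and 0.897 CPM after amphetamine. It is the gene that DESeq2 called (FDR 0.0451). Without mouse 411, the FDR of Tcea1-ps1 was 0.0158 for amphetamine and 0.0216 for the interaction. The parent Tcea1 differed by 0.01 for amphetamine (unadjusted p = 0.601, edgeR).

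Ap3s1-ps1, a copy of the gene of a subunit of the adaptor complex AP-3, was at 2.104 CPM ± 0.213 (SD, n = 10) after saline and 2.56 CPM ± 0.463 (SD, n = 10) after amphetamine (log2 fold change 0.30, SE 0.10, edgeR FDR 0.251). The amphetamine difference of Rps13-ps1 (log2 fold change 3.03, SE 1.08, edgeR FDR 0.263) came from mouse 487 and was -0.41 without it. For the interaction, which asks whether the lines responded differently, no pseudogene and no gene (0% of all genes) passed the threshold in edgeR's test, and 4 of the 82 had an unadjusted p under 0.05 (4.88%, beside 2.97% of all genes). DESeq2 called none and the likelihood-ratio test 1, Tcea1-ps1 (FDR 0.0879). The smallest p values were those of Tcea1-ps1 (log2 difference of the responses 1.90, SE 0.52, unadjusted p = 0.00167, edgeR), Rps15a-ps7 (-2.37, SE 0.74, unadjusted p = 0.00476, edgeR) and Rps13-ps1 (6.57, SE 2.12, unadjusted p = 0.00588, edgeR). Rps15a-ps7 was above 4 CPM in 2 of 5 Control amphetamine mice and in no Control saline mouse, and Rps13-ps1 again rested on mouse 487 (-0.32 without it).

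Per length of the annotated exons, pseudogenes were mostly below their parents. RPKM is here CPM per kilobase of all annotated exons of a gene, merged over its transcripts. In RPKM, the level of a pseudogene was a median of 11.5% of its parent's, from 0.233% for Glns-ps1 to 486% for Atp6v0c-ps2, and 9 of 74 were above the parent. These ratios depend on the length used. In CPM, without a length, the median was 3.63%, and Atp6v0c-ps2 was at 66.7% of its parent. The highest level was that of Atp6v0c-ps2, a copy of the gene of the proteolipid subunit of the vacuolar proton pump, at 182 RPKM ± 67.1 (SD, n = 20), beside 37.5 RPKM for Atp6v0c. Its CPM ranged from 34.5 to 139 in Control and from 31.2 to 126 in High-Active mice, with a line log2 fold change of 0.38 (SE 0.25, FDR 0.345) beside -0.43 (SE 0.21, FDR 0.186) for Atp6v0c. The next were Rps26-ps1 at 68.1 RPKM ± 53.1, Rpl3-ps1 at 50.8 ± 15.9, Rpl34-ps1 at 47.8 ± 24.3 and Rps2-ps13 at 44.1 ± 34.2 (SD, n = 20 each). Their order is not resolved beyond the spread of the mice. Rpl34-ps1 was at 0.226, 0.179 and 0.411 CPM in mice 477, 192 and 499 and between 14.9 and 32.9 CPM in the other 17. Rpl3-ps1, on the X chromosome, was lowest in Control mice 883 and 369 (21.5 and 19.6 CPM) and between 45.5 and 96.5 CPM in the others. Neither differed between the lines at the threshold (Rpl34-ps1 0.11, FDR 0.926; Rpl3-ps1 0.24, FDR 0.546).

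**Figure D5:**
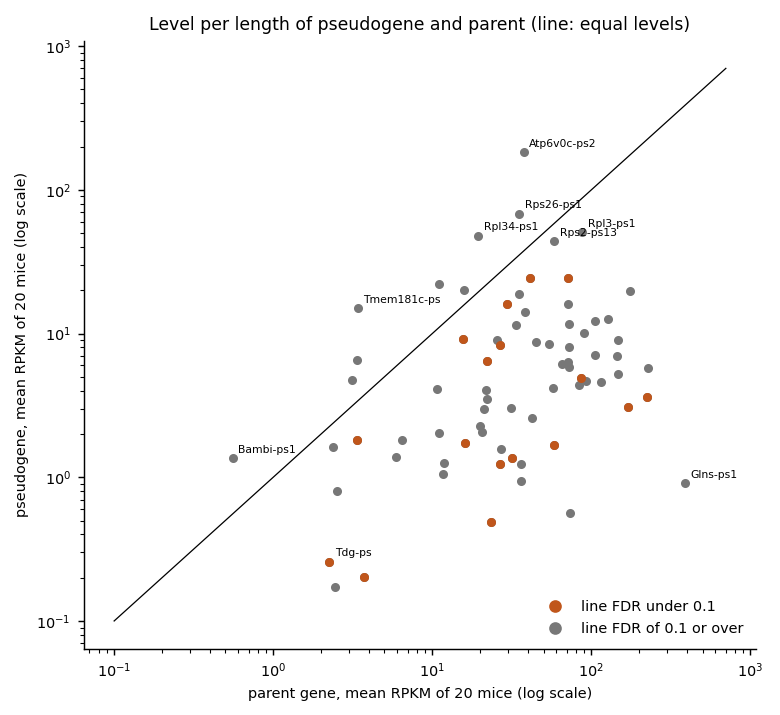
Mean RPKM over the 20 mice of 74 pseudogenes (y axis) against their parents (x axis), both on log scales, with a line at equal levels; orange points are differentially expressed between the lines. Of the 74, 9 lie above the line, Atp6v0c-ps2 highest at 182 RPKM, and no orange point is above it.

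Most pseudogenes overlapped no other expressed gene: 16 of the 82 overlapped 1, 13 of them on the opposite strand. Overlap with genes that did not pass the level rule was not examined. Of the 16, 3 were differentially expressed between the lines (18.8%, beside 14.5% of all genes), and these were the 3 on the same strand as their host. All 3 had passed the level rule through 1 line alone. They lost the call in limma-voom with the pair of parents as a block and in the fit with the marker covariates. They were Rps19-ps6 in Tecpr2, Rpl36-ps12 in Sumf1 and Itpa-ps1 in Ttc17. Tecpr2 was lower in High-Active mice by -0.14 (SE 0.04, FDR 0.0361), while Sumf1 (-0.05, FDR 0.509) and Ttc17 (0.06, FDR 0.309) did not pass the threshold. Among the other hosts, Tcf12 was higher by 0.10 (FDR 0.0688) over Rpl15-ps2, and Wwp2, which spans Rps26-ps1 on the opposite strand, differed by -0.03 (FDR 0.574). Genes expressed within 1 Mb of a differentially expressed pseudogene passed the threshold in 45 of 284 cases (15.8%), beside 164 of 1113 (14.7%) near the other pseudogenes and 14.5% of all genes. Near Tmem181b-ps on chromosome 17, which was differentially expressed, 9 of 17 did, and near Tmem181c-ps, which was not, 9 of 16. These pseudogenes lie within 1 Mb of each other, so genes near both are counted in both totals.

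Just inside the level rule, the third highest CPM was 1.06 for Atg4a-ps, 1.07 for Hspd1-ps3 and 1.08 for Mrip-ps. Just outside it was 0.997 for Rps27a-ps2, 0.959 for Rps15a-ps5 and 0.948 for Tpd52-ps, and these were not tested.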

How the data were processed

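Striatal RNA of 20 mice was sequenced as 100-base read pairs from stranded libraries. The authors aligned the reads to GRCm38 with TopHat2 2.0.10 and assigned them to Ensembl gene models by HTSeq 0.6.1, and the deposited values are raw counts per gene, 1 table per mouse. The strand setting of the counting is not given in the sources used here. Rows of unassigned reads (15.97 to 17.49% of a library) were left out of library sizes. Symbols came from a table of Ensembl names, which named 37607 of 39179 genes, and gene positions and transcripts from GENCODE vM21 (GRCm38).

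Counts were normalized by TMM and fitted with edgeR 4.0.16 (quasi-likelihood, a mean per group) over the 14792 genes above 1 CPM in at least 3 mice, with Benjamini-Hochberg adjustment within each effect. Log2 CPM used a prior count of 2. Permutation tests drew 100000 regroupings of the mice. They took each mouse as independent, so their p values for markers, sums and ratios do not account for littermates and can be too small. Parents were taken by symbol, otherwise as the best BLAST match of at least 90% identity over 50% of the length. The fit was tested on simulated counts. Alternatives included DESeq2 1.42.0 and limma 3.58.1. Named in full were the 15 differentially expressed pseudogenes with the largest fold changes, the 3 with the smallest p for amphetamine and for the interaction, the 5 with the highest level per length and 3 on each side of the level rule. The pseudogenes and lists were chosen with earlier results of these data known.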

Additional observations from a re-analysis of the deposited data

Results flagged for a closer look

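Within groups of 5 mice, 18 single values of the 27 named pseudogenes lay far from the other 4 mice by Dixon's test, among 108 groups examined. Chance flags about 1 in 20 groups. For Rps13-ps1 these were mouse 883 (5.28 CPM, the lowest of the Control saline group) and mouse 487 (5.05 CPM, the highest of the High-Active amphetamine group), and mouse 883 was also the highest in Rps13-ps2 (0.654 CPM). For Ptges3-ps they were mice 477 (32.2 CPM), 457 (3.02 CPM) and 905 (17.5 CPM), and mouse 905 was also the highest of its group in Rps15a-ps7 (7.24 CPM) and Tdg-ps (0.0199 CPM, a single read).

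Mouse 477 stood apart in Atp6v0c-ps2 (139 CPM, the highest), Rpl34-ps1 (0.226 CPM, the lowest) and Rps2-ps13 (0.0677 CPM, the lowest). For Rps2-ps13 the High-Active saline mouse 483 was also far below its group (0.0487 CPM). For Rps26-ps1 the low values were those of mice 457 (0.590 CPM) and 886 (0.450 CPM). The remaining values were Itpa-ps1 in mouse 407 (4.50 CPM), M6pr-ps in mouse 872 (1.20 CPM), Tcea1-ps1 in mouse 411 (0.5 CPM) and Rpl23a-ps3 in mouse 499 (2.12 CPM). In most of these genes the value lay at a level that mice of other groups also showed.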

How the results depend on the processing

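No analysis paired by replicate number was possible, since the labels carry none. Littermates, which link some mice across treatments, were instead fitted by limma-voom with the pair of parents as a block. This fit called 0 pseudogenes and 0% of all genes for amphetamine. Over 20 fits that each left out 1 mouse, 14 to 23 pseudogenes were called for the line, 11 to 17 of them at 2-fold or more, 10 to 13 parents, and 0 to 1 pseudogene each for amphetamine and the interaction. With RLE size factors 18 line calls were made, without the low-count filter 15, with at least 5 mice over 1 CPM 14, with DESeq2 24 (19% of all genes), with the robust likelihood-ratio test 24 (15.3%) and with the block 14 (12.7%), of which 9 were at 2-fold or more. In saline-treated mice alone there were 7 (all 7 at 2-fold or more, with 5 parents), in amphetamine-treated mice alone 1 (1 and 0), with littermates of a line merged into 1 sample 10 (9 and 5) and with the marker covariates 8 (8 and 3). In these fits 3.38%, 0.804%, 4.12% and 2.49% of all genes were called, beside 14.5%, so calls fell over all genes as well. The divided or merged groups hold fewer samples, and the cause of the losses with the covariates was not tested. For amphetamine, DESeq2 called 1 and the likelihood-ratio test 4, and for the interaction the latter called 1. RLE size factors changed no call and no direction among 57 single values.

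Signs changed for Rps13-ps1, Rpl34-ps1, the ratio of Hspd1-ps3 and parents near 0, and the cause was not tested. For Rps13-ps1 the amphetamine difference was -0.26 in Control mice alone and ranged from -0.41 (without mouse 487) to 3.28 without 1 mouse, and its interaction from -0.32 to 7.07. For Rpl34-ps1 the line difference was -0.42 with the parent block and ranged from -0.06 to 0.27 without 1 mouse, and its log2 ratio to Rpl34 from -1.05 to 0.29. The ratio of Hspd1-ps3 to Hspd1 ranged from -0.097 to 0.023. Among parents, the line difference without 1 mouse ranged from -0.024 to 0.044 for Atg4a, from -0.042 to 0.0084 for Mprip, from -0.025 to 0.037 for Pisd and from -0.083 to 0.12 for Rpl34. With the parent block it was -0.0036 for Atg4a, -0.011 for Pisd and -0.019 for Rpl34. With merged littermates it was -0.014 for Atg4a, -0.022 for Pisd and -0.049 for Rpl34, and with the covariates -0.077, -0.013 and -0.081, beside 0.025 for Ap3s1 and 0.019 for Tdg. In saline-treated mice it was -0.052 for Atg4a, -0.057 for Pisd and 0.017 for Mprip, and in amphetamine-treated mice 0.0197 for Rpl36, 0.012 for Rps2 and -0.044 for Tcea1. The likelihood-ratio test gave -0.022 for Rpl34. Depth limits the copies near 0, where a few reads set the level.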

Other observations

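Without the filter on low counts, 444 pseudogenes with -ps in the symbol had a fitted value, and 31 of them were differentially expressed between the lines at an FDR under 0.1 by edgeR's quasi-likelihood test (6.98%, beside 7.25% of all genes in that fit). Among 289 other expressed genes annotated as pseudogenes, 49 were differentially expressed (17.0%, 23 higher and 26 lower in High-Active mice), and 27 (9.34%) with at least a 2-fold difference, beside 14.5% and 1.1% of all genes tested.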
